A study of Homo sapiens with 24 samples.

Results

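The genes described here are 38 genes of the ATF4 amino acid stress response, all 38 found among the 34618 genes of the deposited count table. They were chosen by name: ATF4 itself, partner transcription factors, feedback regulators, secreted and surface proteins, amino acid enzymes and amino acid transporters. Expression was measured by RNA sequencing in HepG2, a human hepatocellular carcinoma cell line, in 3 lines that stably carried a lentiviral short hairpin RNA: a non-specific control (shCtrl), hairpins against SETD2 (shSETD2) or against METTL14 (shMETTL14). All 3 lines had been infected, selected with 1 ug/mL puromycin and then sampled at 0 h, untreated, or after 1, 3 or 6 h in 5 ug/mL actinomycin D, which blocks transcription. Each of the 12 groups of line and time had 2 libraries. The lines are selected pools, and the labels do not say whether a line rests on 1 hairpin or several, so a hairpin's own effects and those of its target cannot be told apart.

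ATF4 is a transcription factor whose mRNA is translated more efficiently when the initiation factor eIF2 is phosphorylated, for example by the kinase GCN2 (EIF2AK4) when amino acids run short. With C/EBP partners it switches on genes that make, import and charge amino acids, and its targets DDIT3 (CHOP), TRIB3, PPP1R15A and SESN2 act on stress outcome or feed back on the pathway. SETD2 trimethylates histone H3 at lysine 36. METTL14 is a subunit of the enzyme that writes N6-methyladenosine on RNA.

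ATF4 partners bind a composite element whose core is TGATGNAA, searched on both strands in RefSeq promoter windows (GRCh38.p14, 250 bases before to 50 after each start). Of the 38 genes, 31 had a window and 10 of these (32.3%) held a match in at least 1 window, against 4.46% of 27305 genes; counted by window, matches stood in 10 of 50 windows (20%) against 3.62% of 35116. The upstream matches of ATF3, CEBPG, JDP2 and ASNS are shown because these genes are followed below; each line runs 5′ to 3′ on the gene's strand, with the match in capitals. A match is a description of these letters, not a measured binding site.
ATF3, chr1:212565205-212565234, plus strand: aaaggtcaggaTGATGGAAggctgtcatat
CEBPG, chr19:33374060-33374089, plus strand: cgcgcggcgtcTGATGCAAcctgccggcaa
JDP2, chr14:75427992-75428021, plus strand: tatatagccggggcTGATGCAAcccgtccc
ASNS, chr7:97872458-97872487, minus strand: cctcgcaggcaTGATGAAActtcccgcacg

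Levels are given as CPM, counts scaled to a common library total by TMM, and as a log2 difference between lines with its standard error (SE). A gene is called higher or lower where the Benjamini-Hochberg adjusted p of edgeR's quasi-likelihood test was under 0.05 over all 14887 genes tested. Of the 38 genes, 36 passed the filter on low counts; CHAC1, a glutathione-degrading enzyme, and FGF21, a secreted hormone, had at most 4 counts in any library and were not tested. Library totals ran from 18308638 to 31402091 counts. SETD2 stood at 66.45% of its control level in shSETD2 at 0 h (log2 difference -0.59, adjusted p = 1.2e-07) and METTL14 at 48.83% in shMETTL14 (-1.03, adjusted p = 1.26e-08), while METTL14 was higher in shSETD2 (0.37, adjusted p = 0.0026). The 2 libraries of shSETD2 at 6 h differed most (chi-square per degree of freedom 18.2, against 1.36 to 5.42 in the other pairs), so slopes of that line were also fitted without each of them. The 7 hepatocyte markers summed to 48500 to 48800 CPM in shCtrl, 91600 to 92500 in shSETD2 and 55500 to 55600 in shMETTL14 at 0 h. Of the fibroblast, blood and endothelial markers, DCN, PTPRC, CD3E and KDR had no count in any library. Others reached 48.9 CPM (PDGFRB), 19.1 (COL1A1), 3.95 (CD14), 2.6 (CD3D) and 2.04 (CDH5) in their highest library. At 0 h the 6 fibroblast markers summed to 13.2 to 13.5, 18.5 to 19.2 and 28.5 to 30.9 CPM in shCtrl, shSETD2 and shMETTL14. In the same order, the 6 blood markers summed to 2.17 to 2.55, 2 to 2.35 and 2.87 to 2.89 CPM. The 3 endothelial markers summed to 0.277 to 0.31, 0.881 to 0.906 and 1.09 to 1.37 CPM. The part of these marker differences in the results below was not tested.

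In untreated shCtrl cells the length-scaled levels (RPKM) of the 38 genes spanned a wide range. SLC38A2, a glutamine and neutral amino acid transporter, was highest at 350.7 ± 7.18 RPKM (SD, n = 2), followed by PSAT1 of serine synthesis at 231.5 ± 5.25, the leucine transporter SLC7A5 at 154.5 ± 1.24 and ATF4 at 137.4 ± 3.97, with no overlap between these neighbours. ASNS, asparagine synthetase, stood at 59.92 ± 0.841 RPKM and DDIT3 at 25.4 ± 0.118. The lowest of the tested genes were CREBRF, a regulator of the unfolded protein response, at 0.8813 ± 0.111 RPKM and the mitochondrial folate enzyme ALDH1L2 at 0.7599 ± 0.0519, where the difference between their means was about the SD of CREBRF.

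Knockdown of METTL14 went with a lower level of nearly the whole set before actinomycin D. Of the 36 tested genes, 31 were lower and 4 higher than in shCtrl, where 25.1% of all tested genes were lower and 23.1% higher. The median log2 difference was -0.97 over the set and -0.0062 over all tested genes. By role, 8 of 8 transcription factors, 4 of 6 feedback and sensing genes, 2 of 2 secreted and surface genes, 11 of 13 enzymes and 6 of 7 transporters were lower.

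ATF4 (chr22:39915700-39918691, GRCh37, plus strand) was itself lower. Its libraries read 296 and 307 CPM in shCtrl, 308 and 313 in shSETD2, and 174.5 and 165 in shMETTL14. The shMETTL14 libraries lay well below the other 4 (log2 difference from shCtrl -0.83, SE 0.058, adjusted p = 8.55e-11), and shSETD2 did not differ detectably from shCtrl (0.042, 95% interval -0.077 to 0.16, adjusted p = 0.593). JDP2 (chr14:75894419-75940814, GRCh37, plus strand), a basic leucine zipper repressor, had with ASNS the largest differences of the set. It read 18.02 and 19.2 CPM in shCtrl, 12.3 and 14.5 in shSETD2, and 3.84 and 4.37 in shMETTL14 (log2 difference -2.19, SE 0.11, adjusted p = 3.27e-13). DDIT3 (chr12:57910371-57914300, GRCh37, minus strand), the pro-apoptotic CHOP, read 26.2 and 25.96 CPM in shCtrl, 12.98 and 14.1 in shSETD2, and 9.64 and 8.14 in shMETTL14. Its groups were separate and in the same order as JDP2 (shMETTL14 -1.55, SE 0.12, adjusted p = 2.92e-10). ATF3, a stress-induced member of the ATF family, read 29.04 and 27.4 CPM in shCtrl, 17.7 and 16.97 in shSETD2, and 11.7 and 11.2 in shMETTL14 (-1.298, adjusted p = 8.58e-11). The other 4 transcription factors (ATF5, CEBPB, CEBPG and NUPR1) had differences between -1.21 and -0.71 in shMETTL14. The span of ATF5 shares 1062 bases with NUP62 on the opposite strand, which averaged 35.2 CPM against 27.9 for ATF5.

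Among feedback and sensing genes, DDIT4, an inhibitor of mTORC1 signalling, read 70.4 and 70.0 CPM in shCtrl, 48.3 and 48.4 in shSETD2, and 19.5 and 18.2 in shMETTL14 (-1.90, SE 0.098, adjusted p = 4.43e-13). TRIB3, a pseudokinase that binds ATF4 and dampens it, stood at 29.65% of its control level in shMETTL14 (-1.75, SE 0.082, adjusted p = 8.7e-14). Both knockdown lines are compared with the same shCtrl libraries here. CREBRF (chr5:172483355-172566291, GRCh37, plus strand) read 10.4 and 8.62 CPM in shCtrl, 15.01 and 14.9 in shSETD2, and 24.1 and 24.1 in shMETTL14, so its groups ran in the opposite order to JDP2 and DDIT3 (shMETTL14 1.35, SE 0.11, adjusted p = 9.52e-10). EIF2AK4, the amino acid sensor kinase, was higher by 0.40 in shMETTL14 and by 0.36 in shSETD2 on the log2 scale (chosen after its values were seen), and by 0.26 in shMETTL14 without replicate 1 of that line.

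**Figure D1:**
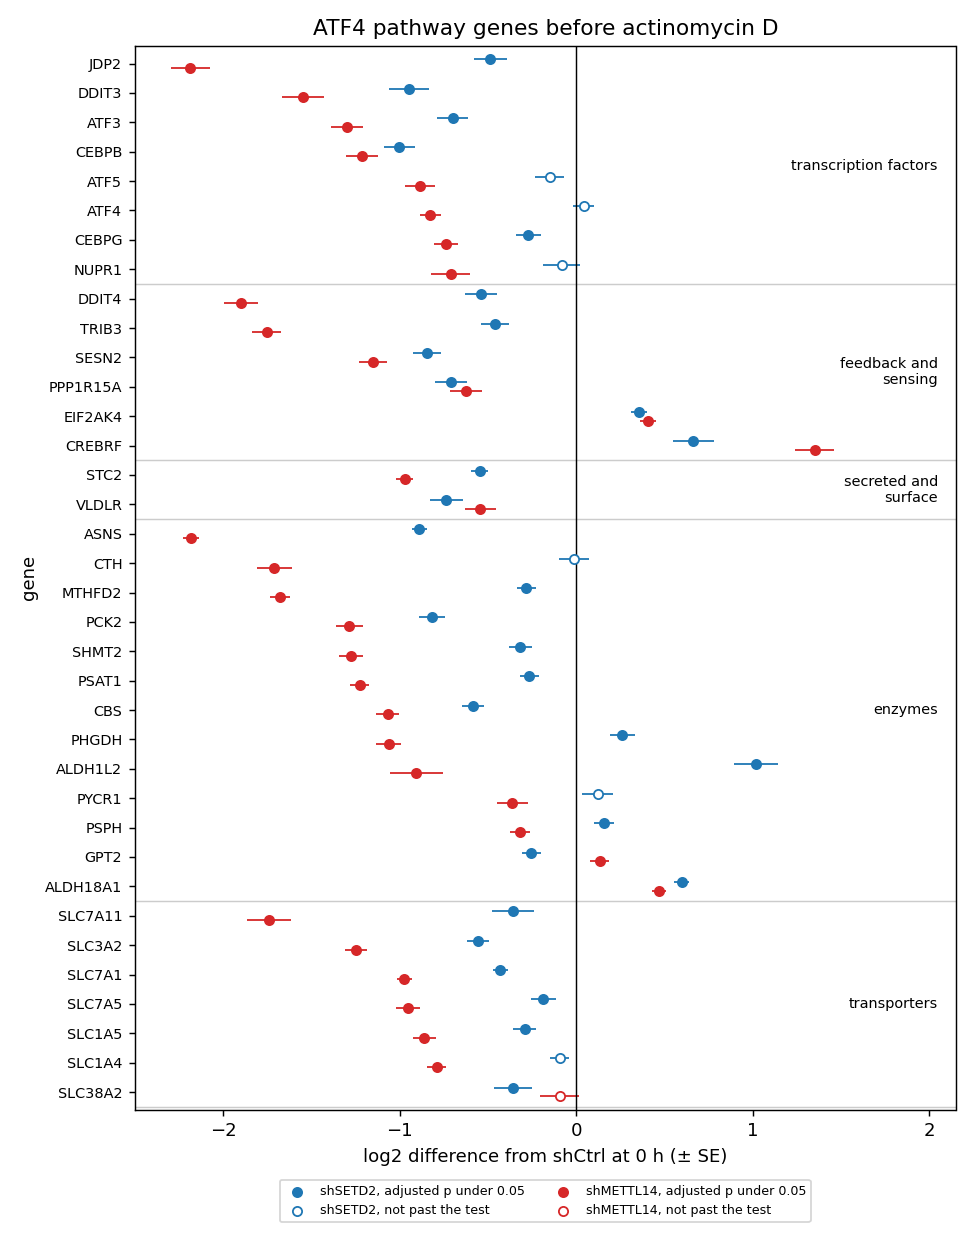
Log2 difference from shCtrl at 0 h (horizontal axis, bars are SE) for the 36 tested genes, grouped by role, in shSETD2 (blue) and shMETTL14 (red); filled points passed the test. Most shMETTL14 points lie further left than the shSETD2 points, with JDP2 and ASNS at the far left and CREBRF furthest right; both lines are compared with the same 2 shCtrl libraries.

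Enzymes made up the largest role. ASNS (chr7:97481430-97501854, GRCh37, minus strand), which makes asparagine, read 231 and 235 CPM in shCtrl, 125 and 126 in shSETD2, and 52.5 and 50.1 in shMETTL14. The 3 groups were far apart relative to their spread (shMETTL14 -2.18, SE 0.046, adjusted p = 6.81e-20; shSETD2 -0.89, SE 0.044, adjusted p = 1.39e-13). CTH, which makes cysteine from cystathionine, read 17.1 and 17.2 CPM in shCtrl, 17.1 and 16.8 in shSETD2, and 5.52 and 4.90 in shMETTL14, so that only the shMETTL14 libraries stood apart (-1.71, SE 0.099, adjusted p = 2.96e-12). MTHFD2, of the mitochondrial folate cycle, stood at 31.27% of control in shMETTL14 (-1.68, adjusted p = 2.62e-16). Higher than control in shMETTL14 were ALDH18A1, the first enzyme of proline synthesis (0.47), and GPT2, the mitochondrial alanine transaminase (0.13), both chosen after their values were seen; the GPT2 call did not hold under 10 of 13 alternatives.

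Of the transporters, SLC7A11, the cystine importer, read 204 and 191 CPM in shCtrl, 150.0 and 158 in shSETD2, and 59.0 and 59.3 in shMETTL14 (-1.74, SE 0.13, adjusted p = 2.55e-09). SLC3A2, its heavy-chain partner and that of SLC7A5, stood at 42.11% of control in shMETTL14. SLC38A2, the most abundant of the set per length, was the single tested gene without a call in this comparison (-0.094, 95% interval -0.32 to 0.14, adjusted p = 0.503).

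**Figure D2:**
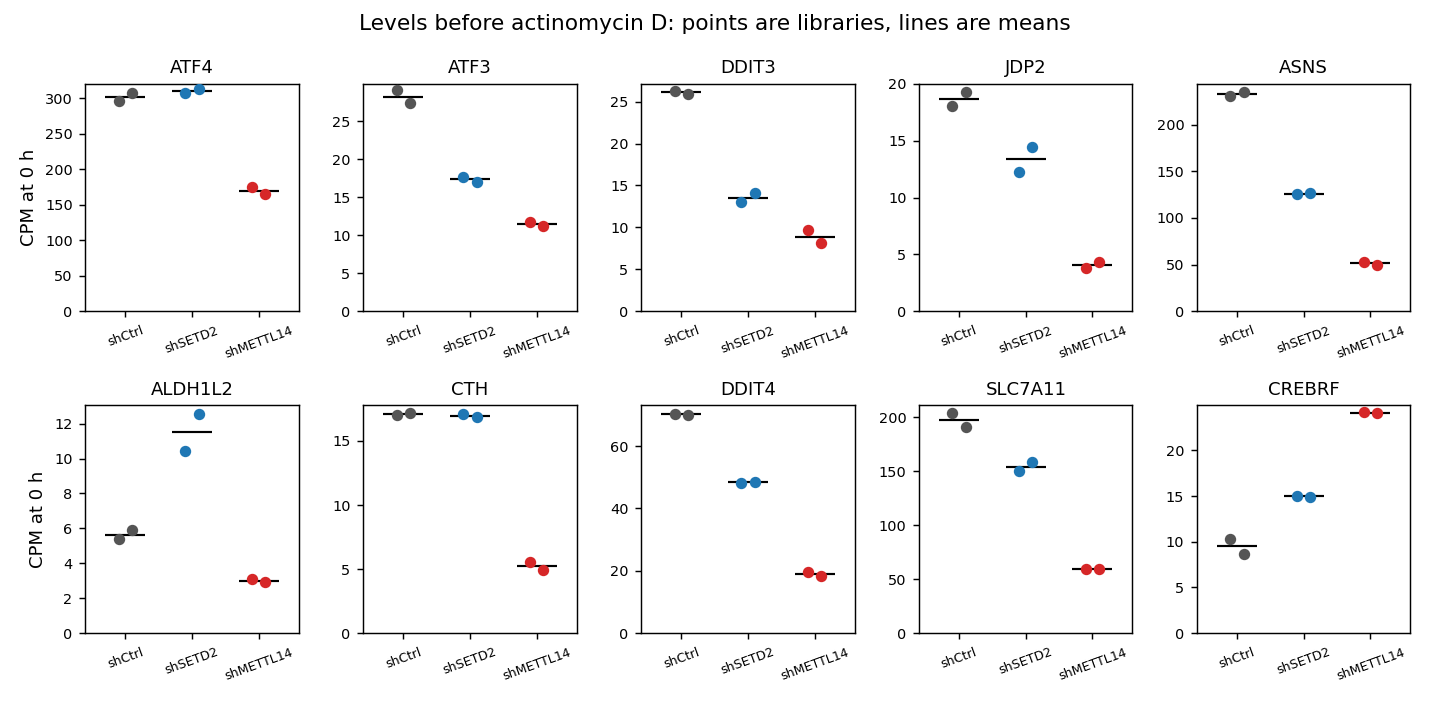
CPM at 0 h (vertical axes, each from 0) in each of the 2 libraries of shCtrl (grey), shSETD2 (blue) and shMETTL14 (red) for 10 genes; lines are group means. The shMETTL14 libraries are lowest in 9 panels and highest for CREBRF, and ALDH1L2 is highest in shSETD2.

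The shSETD2 line had smaller differences and more exceptions. Of 36 genes, 24 were lower and 6 higher than in shCtrl, where 18.9% of all tested genes were lower and 21.6% higher, and the median was -0.30 against 0.017 over all tested genes. The largest falls were in CEBPB, a C/EBP partner (-1.0015, SE 0.088, adjusted p = 3.71e-09), DDIT3 (-0.95, adjusted p = 4.67e-07), ASNS, SESN2 (-0.85, adjusted p = 1.22e-08), the mitochondrial PEP carboxykinase PCK2 (-0.82, adjusted p = 9.32e-09), the lipoprotein receptor VLDLR (-0.74), the eIF2 phosphatase subunit PPP1R15A (-0.71) and ATF3 (-0.70). These genes stood at 49.95% to 61.6% of control while the ATF4 mRNA stood at 103%. Across genes, shSETD2 differences fell with transcript GC content (Spearman's rho -0.264 over 14508 genes, which are not independent), and the 36 genes had a median GC content of 55.4% against 50% overall; with the GC trend removed 25 were lower and 6 higher.

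ALDH1L2 (chr12:105413568-105478355, GRCh37, minus strand) moved against the set in shSETD2. It read 5.37 and 5.90 CPM in shCtrl, 10.4 and 12.6 in shSETD2, and 3.09 and 2.93 in shMETTL14. The shSETD2 libraries lay above the other 4 (1.02, SE 0.12, adjusted p = 4.85e-07) and the shMETTL14 libraries below (-0.91, SE 0.15, adjusted p = 2.71e-05). The span of ALDH1L2 shares 29948 bases with C12orf45 on the opposite strand, which averaged 6.06 CPM against 9.02 for ALDH1L2. The strand setting of the counting is not stated, so some reads of these genes may not be told apart. CREBRF was also higher in shSETD2 (0.66, SE 0.12, adjusted p = 7.61e-05), by 0.44 without replicate 2 of shCtrl (adjusted p = 0.0207). The other higher genes, ALDH18A1 (0.60), EIF2AK4 (0.36), PHGDH of serine synthesis (0.26) and PSPH of the same pathway (0.16), fall outside the naming rule and were chosen after their values were seen. The PSPH call was lost under 12 of 13 alternatives and the PHGDH call under 5, among them leaving out either shCtrl library at 0 h (0.14 without replicate 1). Calls of SLC38A2, SLC7A11 and SLC7A5 were lost without either shSETD2 library at 0 h, and that of CEBPG without replicate 1.

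Compared directly, 29 of 36 genes were lower and 2 higher in shMETTL14 than in shSETD2, against 29.2% and 23% of all tested genes, with a median of -0.60 against -0.030. The largest differences were those of ALDH1L2 (-1.92, SE 0.13, adjusted p = 5.37e-11), JDP2 (-1.70, SE 0.12), CTH (-1.70, SE 0.099), MTHFD2 (-1.39), SLC7A11 (-1.38), DDIT4 (-1.36), PHGDH (-1.32), TRIB3 (-1.2955) and ASNS (-1.29). PHGDH read 176 and 183 CPM in shCtrl, 215 and 216 in shSETD2, and 88.1 and 84.0 in shMETTL14, so the control lay between the knockdown lines. ATF4 was lower by -0.87 (SE 0.058, adjusted p = 3.02e-11) and DDIT3 by -0.60 (SE 0.13, adjusted p = 0.000334) on the log2 scale. CREBRF (0.69) and GPT2 (0.39) were the genes higher in shMETTL14.

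Other lists of the pathway, made up of genes outside the 38, are given by counts at 0 h; over all tested genes 25.1% were lower and 23.1% higher in shMETTL14, and 18.9% lower and 21.6% higher in shSETD2, and several of the counts below are near these shares. Of 25 tested further ATF4 targets, among them aminoacyl-tRNA synthetases, 25 were lower in shMETTL14 (median -0.92) and 22 lower and 1 higher in shSETD2 (median -0.41); the higher gene was HMOX1, heme oxygenase (0.88), named after its value was seen. Of 14 endoplasmic reticulum chaperones and related genes, which the unfolded protein response controls largely through other factors, 14 were lower in shMETTL14 (median -0.56), and 10 were lower and 1, DNAJB9, higher in shSETD2 (median -0.50). The 14 kinases, eIF2 and eIF2B subunits and phosphatase had 7 lower and 1 higher (EIF2AK1, 0.28) in shMETTL14, and 2 lower (EIF2AK1, -0.22, and EIF2B4, -0.22) and 3 higher (EIF2AK3, 0.58, PPP1R15B, 0.26, and EIF2B1, 0.22) in shSETD2. Amino acid transporters outside the set were split, with 6 lower and 7 higher of 16 in shMETTL14, and 4 lower and 8 higher in shSETD2. The 31 other amino acid and one-carbon enzymes had 12 lower and 6 higher in shMETTL14, and 3 lower (MAT2A, AHCY and GOT1) and 13 higher in shSETD2.

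Under actinomycin D the set divided by role. Change over time is the slope of the 4 group means on hours in log2 per h, fitted after TMM scaling. Such slopes are neither absolute amounts nor plain shares of all counts. A positive slope therefore does not show that a transcript accumulated. In shCtrl 16 of 36 genes had a positive and 11 a negative called slope (37.8% and 33.2% of all tested genes), in shSETD2 16 and 15 (34.2% and 36.2%), and in shMETTL14 19 and 13 (38.2% and 34.8%). These shares are near those of all genes. With library size alone in place of TMM, positive and negative counts were 12 and 20 in shCtrl, 11 and 20 in shSETD2. They were 9 and 18 in shMETTL14. The counts by role that follow are after TMM scaling. Of 13 enzymes, 11, 11 and 12 had a positive slope in shCtrl, shSETD2 and shMETTL14. Of 8 transcription factors 5, 6 and 5, and of 6 feedback and sensing genes 4, 5 and 5, had a negative one. Mostly positive slopes were not particular to enzymes of the set. In shCtrl 25 of 31 other amino acid and one-carbon enzymes had a positive and 3 a negative slope. The counts were 12 and 2 of 16 other amino acid transporters, and 11 and 3 of 14 endoplasmic reticulum chaperones.

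The most negative slopes in shCtrl were mostly those of regulators. DDIT4 read 70.4 and 70.0 CPM at 0 h in shCtrl, 19.3 and 18.7 at 1 h, 3.11 and 2.82 at 3 h, and 2.18 and 1.48 at 6 h (slope -0.85, SE 0.025, adjusted p = 2.57e-18). CEBPB (-0.72), DDIT3 (-0.71), SESN2 (-0.63), TRIB3 (-0.50), SLC38A2 (-0.46), ATF3 (-0.42) and PPP1R15A (-0.38) followed, and CEBPG fell more slowly (-0.25). At 6 h these 9 genes stood at 2.602% to 35.78% of their 0 h level in shCtrl. The order of slopes over 6 h was not the order of the early fall. At 1 h in shCtrl DDIT3 stood at 23.1% of its 0 h level, DDIT4 at 27.06%, PPP1R15A at 30.37% and CEBPB at 45.94%. CREBRF, which is not among the 9, stood at 50.34%, SESN2 at 74.66% and TRIB3 at 93.41%. SLC38A2 was the exception among transporters: in shCtrl it read 2053 and 1986 CPM at 0 h and 280 and 317 at 6 h. After TMM scaling ATF4 stayed level, at 95.75%, 99.7% and 100.2% of its 0 h level at 6 h in shCtrl, shSETD2 and shMETTL14 (slopes 0.0013, 0.0014 and 0.0002, adjusted p = 0.907, 0.901 and 0.987). With scaling by library size alone, its slopes were -0.058, -0.048 and -0.071, all past the threshold. ASNS had slopes of 0.13 (SE 0.0065), 0.087 (SE 0.0067) and 0.16 (SE 0.0071), and ended at 177.3%, 144.9% and 190.7% of its 0 h level.

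**Figure D3:**
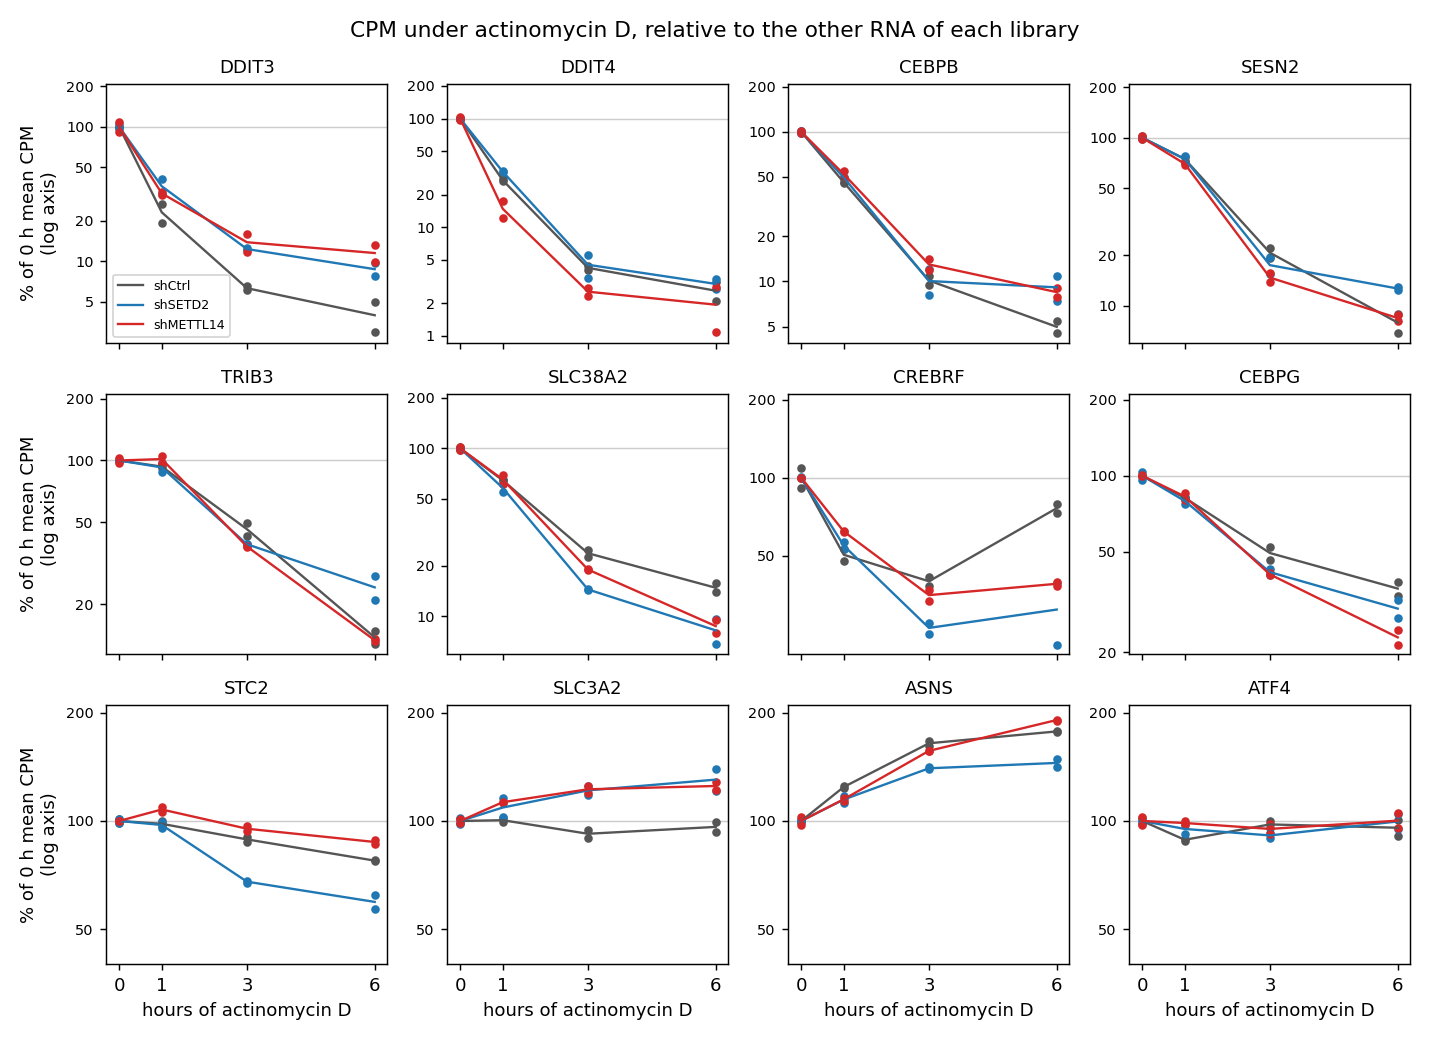
CPM as a percentage of the line's 0 h mean (vertical axes, log scale) against hours of actinomycin D for 12 genes; points are libraries and lines join means of 2 libraries in shCtrl (grey), shSETD2 (blue) and shMETTL14 (red). DDIT3, DDIT4, CEBPB and SESN2 end between 1.935% and 12.63%, while ATF4 stays near 100% and ASNS ends above it.

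Slopes differed between lines for a part of the set and in both directions. Against shCtrl, 5 genes had a higher (less negative or more positive) and 9 a lower slope in shSETD2, where 1.49% and 6.45% of all tested genes did, and 7 had a higher and 4 a lower slope in shMETTL14 (1.85% and 3.35%). Between the knockdown lines 7 were higher and 2 lower in shMETTL14 (6.40% and 3.20%). With slopes over 0, 1 and 3 h alone, which use fewer libraries and a shorter span, 1 was higher and 3 lower in shSETD2, 1 higher and 0 lower in shMETTL14, and 2 higher and 0 lower between the knockdown lines. Of the 34 differences called over all times, 6 were called over 0 to 3 h. In that span 30 kept their sign and 24 were at least as large as the reported value divided by 1.5. These fits share libraries with the reported slopes, so a kept sign or size is not separate support. Why calls were lost was not tested. DDIT3 in shMETTL14 was 0.38 over 0 to 3 h (adjusted p = 0.0837), SLC7A11 in shSETD2 was -0.20 (adjusted p = 0.0825) and JDP2 in shMETTL14 was -0.20 (adjusted p = 0.121).

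SLC38A2 fell faster in shSETD2 (-0.15, SE 0.025, adjusted p = 0.0016) and in shMETTL14 (-0.14, SE 0.025, adjusted p = 0.00267), each against the same shCtrl libraries. In shSETD2 its libraries read 1560 and 1589 CPM at 0 h, 863 and 968 at 1 h, 225 and 230 at 3 h, and 108 and 151 at 6 h; in shMETTL14 they read 1845 and 1938, 1159 and 1311, 360 and 358, and 151 and 180. At 6 h all 4 knockdown libraries lay below both shCtrl libraries, and the shSETD2 difference passed the test over 0 to 3 h as well (-0.25, adjusted p = 0.0209). The shMETTL14 difference did not pass over 0 to 3 h (-0.12, adjusted p = 0.361). At 1 h SLC38A2 stood at 64.48%, 58.13% and 65.3% of its 0 h level in shCtrl, shSETD2 and shMETTL14. CREBRF had the lowest slope difference of the set in both lines (shSETD2 -0.24, SE 0.033, adjusted p = 8.91e-05; shMETTL14 -0.19, SE 0.030, adjusted p = 0.00029). In shCtrl it fell to 3.61 and 3.93 CPM at 3 h and stood at 6.94 and 7.51 at 6 h, whereas in shMETTL14 it read 8.92 and 8.05 at 3 h and 9.20 and 9.56 at 6 h. Both shCtrl libraries thus lay higher at 6 h than at 3 h. Over 0 to 3 h neither difference passed (shSETD2 -0.22, adjusted p = 0.142; shMETTL14 -0.087, adjusted p = 0.631).

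Some short-lived regulators had shallower slopes in a knockdown line that began from a lower level. DDIT3 had a higher slope in shMETTL14 (0.25, SE 0.066, adjusted p = 0.0281), and its difference in shSETD2 did not pass (0.16, 95% interval 0.029 to 0.30). At 6 h its 6 libraries read 1.295 and 0.769 CPM in shCtrl, 1.32 and 1.04 in shSETD2, and 1.17 and 0.875 in shMETTL14, resting on 13 to 25 counts, so the lines overlapped at 6 h after standing apart at 0 h. The shMETTL14 call was lost without replicate 2 of shCtrl or either shMETTL14 library at 6 h. The span of DDIT3 shares 982 bases with MARS on the opposite strand, which averaged 242 CPM against 5.84 for DDIT3. The sources do not state whether the counting used strand, so reads in the shared bases may not be told apart. CEBPB also had a higher slope in shSETD2 (0.14, adjusted p = 0.0179) and in shMETTL14 (0.13, adjusted p = 0.0474). Over 0 to 3 h its shSETD2 difference had the opposite sign (-0.013, adjusted p = 0.951). The shMETTL14 difference was 0.12 over that span (adjusted p = 0.421). By 3 h CEBPB stood at 10.15% of its 0 h level in shCtrl and 10.07% in shSETD2. At 6 h it read 3.42 and 4.08 CPM in shCtrl, 4.07 and 2.80 in shSETD2, and 2.95 and 2.57 in shMETTL14; the shSETD2 call was lost without replicate 1 of shSETD2 (0.090) or of shCtrl at 6 h, and the shMETTL14 call under 12 alternatives.

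TRIB3 and SESN2 had shallower slopes in shSETD2 over 0 to 6 h. TRIB3 read 56.1 and 56.2 CPM at 3 h and 39.3 and 30.1 at 6 h in shSETD2, against 97.6 and 85.1 and then 29.1 and 25.2 in shCtrl. Both shSETD2 libraries thus lay below both shCtrl libraries at 3 h and above them at 6 h (slope difference 0.13, SE 0.020, adjusted p = 0.000323), and over 0 to 3 h the difference had the opposite sign (-0.086, adjusted p = 0.318). In shMETTL14 it read 22.4 and 22.2 and then 7.73 and 7.87. SESN2, an inhibitor of mTORC1 under leucine shortage, had a slope difference of 0.10 in shSETD2 (adjusted p = 0.0349). Its call was lost under 8 alternatives, among them leaving out either shSETD2 library at 6 h. Over 0 to 3 h the SESN2 difference also had the opposite sign (-0.089, adjusted p = 0.442).

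Other differences were in transporters, enzymes and transcription factors. SLC3A2 had a higher slope in shSETD2 (0.074, SE 0.014, adjusted p = 0.00167), which passed over 0 to 3 h too (0.13, adjusted p = 0.0151). It had a higher slope in shMETTL14 as well (0.061, SE 0.014, adjusted p = 0.00897), which also passed over 0 to 3 h (0.13, adjusted p = 0.0151). The shMETTL14 call over all times was lost by limma and without replicate 2 of shCtrl or replicate 1 of shMETTL14 at 6 h. In shSETD2, SLC7A11 (-0.13, SE 0.026, adjusted p = 0.00555) had a lower slope. Its call was lost over 0 to 3 h, without replicate 2 of shCtrl at 0 h and without replicate 1 of shSETD2 at 6 h (-0.094). ASNS also had a lower slope there (-0.046, SE 0.0094, adjusted p = 0.00407). The ASNS call was lost under 8 alternatives, among them leaving out replicate 1 (-0.012) or 2 (-0.015) of shCtrl at 0 h. ALDH1L2 had a lower slope too (-0.097, SE 0.026, adjusted p = 0.0248), with its call lost under 14 alternatives. The ALDH1L2 difference was -0.057 without replicate 1 of shCtrl at 0 h and -0.069 without replicate 1 of shSETD2 at 6 h. STC2, a secreted glycoprotein, had a lower slope in shSETD2 (-0.072, SE 0.011, adjusted p = 0.000256) that also passed for STC2 over 0 to 3 h (-0.14, adjusted p = 0.000976); it falls outside the naming rule and was chosen after its values were seen. Without replicate 1 of shCtrl at 0 h the STC2 difference was -0.037 (adjusted p = 0.0628), and without replicate 2 it was -0.042 (adjusted p = 0.0413). In shMETTL14, JDP2 (-0.14, SE 0.033, adjusted p = 0.0124) and CEBPG (-0.12, SE 0.018, adjusted p = 0.000345) fell faster than in shCtrl, and PPP1R15A (0.12, adjusted p = 0.00988), ATF3 (0.11, adjusted p = 0.0427) and CTH (0.095, adjusted p = 0.0167) had higher slopes. The CEBPG call was lost only over 0 to 3 h, where the difference was -0.10 (adjusted p = 0.186). JDP2 and CTH lost theirs without replicate 1 of shCtrl or either shMETTL14 library at 6 h, and JDP2 also without replicate 1 of shCtrl or replicate 2 of shMETTL14 at 0 h. PPP1R15A lost its call without replicate 1 of shCtrl or of shMETTL14 at 6 h, and ATF3 under 13 alternatives. None of PPP1R15A, CTH and ATF3 passed over 0 to 3 h in shMETTL14. There PPP1R15A was 0.021 (adjusted p = 0.911), CTH 0.036 (adjusted p = 0.806) and ATF3 -0.0040 (adjusted p = 0.986). CEBPG read 99.9 and 99.6 CPM at 0 h and 33.5 and 37.9 at 6 h in shCtrl, and 59.6 and 60.0 and then 12.8 and 14.6 in shMETTL14.

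**Figure D4:**
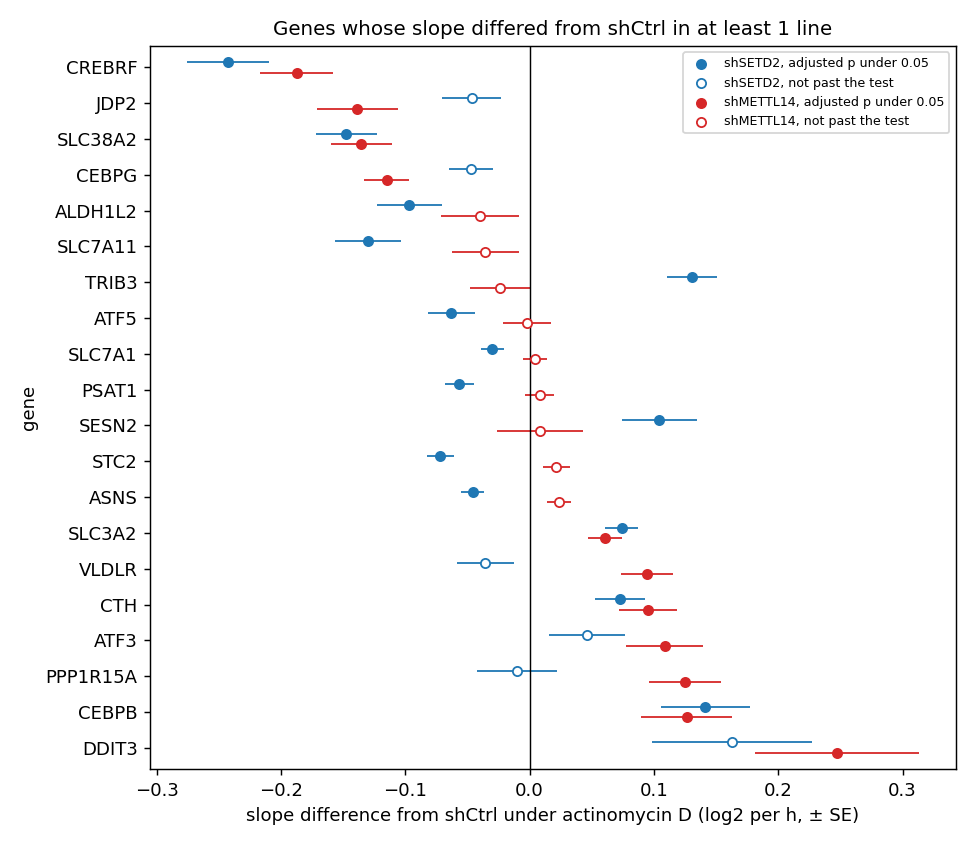
Slope difference from shCtrl in log2 per h (horizontal axis, bars are SE) for the 20 genes called in at least 1 line, in shSETD2 (blue) and shMETTL14 (red); filled points passed the test. CREBRF is lowest in both lines and DDIT3 highest, and TRIB3 stands at 0.13 in shSETD2 and -0.024 in shMETTL14; both lines share the shCtrl libraries.

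Within the first hour no gene of the set passed edgeR's test for a change unlike that in shCtrl. In shSETD2 0 of 36 were higher and 0 lower (0.0202% and 0.0269% of all tested genes), with 2 at an unadjusted p under 0.05, and in shMETTL14 0 and 0 (0.0537% and 0.0537%), with 5. The nearest was DDIT4, chosen after its values were seen: its shMETTL14 libraries read 3.26 and 2.30 CPM at 1 h, or 14.77% of the 0 h mean against 27.06% in shCtrl (-0.87, 95% interval -1.24 to -0.51, adjusted p = 0.0554), and it passed under 6 alternatives, DESeq2 among them. ATF4 (0.10 in shSETD2 and 0.15 in shMETTL14), DDIT3 (0.67 and 0.48) and ASNS (-0.12 and -0.11) did not pass.

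The authors' deposited table of half-lives lists 20 of the 38 genes among 7772. In the authors' deposited table the medians of the 20 were 7.58 h in shCtrl, 3.12 h in shSETD2 and 2.98 h in shMETTL14, against 6.02, 4.13 and 4.31 h over all listed genes. In that authors' deposited table the half-life was shorter than in shCtrl for 15 of 20 in shSETD2 (75%) and 14 of 20 in shMETTL14 (70%), shares below the 88.2% and 88.8% of all listed genes; no test was run on this. The authors' deposited table gives SLC38A2 1.89, 1.33 and 1.38 h in shCtrl, shSETD2 and shMETTL14, CREBRF 10.6, 2.45 and 2.92 h, and CEBPG 3.16, 2.31 and 2.04 h, which are shorter in both knockdown lines. CREBRF did not fall steadily in shCtrl, where it stood at 50.34%, 39.75% and 76.19% of its 0 h CPM at 1, 3 and 6 h. At 1 h it stood at 54.6% in shSETD2 and 61.92% in shMETTL14, so its listed half-lives do not show a faster early fall there. For DDIT3 the authors' deposited table gives 1.23, 1.48 and 1.64 h, and for DDIT4 1.07, 1.04 and 1.02 h. ATF4 is listed there at 13.6, 7.89 and 7.57 h, beyond the 6 h sampled, and its slope after TMM scaling was near 0 in all 3 lines. By library size alone, its slopes were -0.058, -0.048 and -0.071 in shCtrl, shSETD2 and shMETTL14.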

How the data were processed

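RNA-seq of 24 HepG2 libraries was analysed from the gene counts as the authors deposited them; the submitters' processing notes name TopHat, cutadapt, HTSeq 0.6.1p1 and build GRCh37. The authors also deposited RPKM values, which match counts of the same table scaled by gene length and library total, and a half-life table. Per the labels' protocols ERCC spike-ins were added; the table holds 0 ERCC entries, so values are relative to other RNA. The sources do not state the annotation release, strand setting or half-life formula. Columns were matched to samples by title; 0 value columns were left without a sample.

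The main test was edgeR 4.0.16 under R 4.3.3 (TMM, filterByExpr over 12 groups, robust quasi-likelihood F test, two-sided, Benjamini-Hochberg at 0.05) in 1 model of 24 libraries with 12 residual degrees of freedom. It was also run on simulated counts. These were drawn with each gene's fitted spread, alike in all libraries, so they cannot show how the test fares where library pairs differ in spread. Over all libraries, 3 counts correspond to 0.0936 to 0.196 CPM (counting error only). The series calls the libraries biological replicates; nothing says how cultures were kept apart, so p-values measure the spread between these libraries. Alternatives were RLE or library-size scaling, no filter or a mean of 5 CPM, DESeq2 1.42.0, limma 3.58.1 on log2(RPKM + 0.1), a replicate block, only the lines compared, slopes over 0 to 3 h and leaving out each library; removing a trend on transcript GC content was chosen after seeing the data. The genes, lists and tests were chosen with earlier results of these data known. Named at each comparison were ATF4, DDIT3, ASNS and up to 8 further called genes with the largest differences. Promoters are from RefSeq GRCh38.p14; no coordinates were converted between builds.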

Additional observations from a re-analysis of the deposited data

Results flagged for a closer look

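The slope under actinomycin D differed between lines, by the test of the difference itself (edgeR's quasi-likelihood test, Benjamini-Hochberg adjusted p under 0.05), for the genes below, with values in log2 per h. In shSETD2 relative to shCtrl, slopes were lower for CREBRF (-0.24), SLC38A2 (-0.15), SLC7A11 (-0.13), ALDH1L2 (-0.097), STC2 (-0.072), ATF5 (-0.063), PSAT1 (-0.057), ASNS (-0.046) and SLC7A1 (-0.030), and higher for CEBPB (0.14), TRIB3 (0.13), SESN2 (0.10), SLC3A2 (0.074) and CTH (0.073). In shMETTL14 relative to shCtrl they were lower for CREBRF (-0.19), JDP2 (-0.14), SLC38A2 (-0.14) and CEBPG (-0.12), and higher for DDIT3 (0.25), CEBPB (0.13), PPP1R15A (0.12), ATF3 (0.11), CTH (0.095), VLDLR (0.094) and SLC3A2 (0.061). In shMETTL14 relative to shSETD2 they were lower for TRIB3 (-0.15) and CEBPG (-0.068), and higher for PPP1R15A (0.14), VLDLR (0.13), SLC7A11 (0.094), STC2 (0.093), ASNS (0.070), PSAT1 (0.065) and SLC7A1 (0.034). Several of these calls were easily lost. In shSETD2, ATF5 lost its call under 19 of 26 alternatives, was -0.031, -0.030 and -0.036 without replicate 1 or 2 of shCtrl at 0 h or replicate 1 of shCtrl at 6 h, and lost its call at -0.054 without replicate 2 of shSETD2 at 6 h. PSAT1 was -0.027 and -0.022 there without replicate 1 or 2 of shCtrl at 0 h, and SLC7A1 lost its call under 22 of 26. Between the knockdown lines SLC7A11 lost its call under 15 of 26 and was 0.058 without replicate 1 of shSETD2 at 6 h, SLC7A1 lost its call under 13 of 26, and CEBPG was -0.049 without replicate 2 of shSETD2 at 6 h (adjusted p = 0.0792). Groups of 2 libraries were too small to look for single libraries far from the others.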

How the results depend on the processing

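At 0 h the count of lower genes kept within 1.5 times its value under every alternative (shSETD2, 24, 20 to 25 when a library was left out; shMETTL14, 31 and 31 to 31). Between the knockdown lines the count of higher genes was 2, but 6 by library size alone and 5 with a mean of 5 CPM, limma, only the lines compared or the GC trend removed. ALDH18A1 there turned to 0.083 by library size alone and 0.083 by limma, and PSPH in shSETD2 to -0.0011 and -0.0016. Library size alone moved the median of all genes to -0.14 in shSETD2 and 0.18 between the knockdown lines. For slopes within lines, shCtrl had 20 lower genes by library size alone or limma and 18 with a mean of 5 CPM (10 to 17 without a library), and shMETTL14 had 9 higher by library size alone or limma. ATF4 slopes turned to -0.058, -0.048 and -0.071 in shCtrl, shSETD2 and shMETTL14 by library size alone, to -0.058, -0.048 and -0.071 by limma, and to -0.022 in shCtrl with a mean of 5 CPM.

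Of slope differences in shSETD2, 8 were higher with a mean of 5 CPM and 1 over 0 to 3 h (3 to 7 without a library), and lower were 4 with RLE or a mean of 5 CPM, 5 with DESeq2, 3 with only the lines compared and 3 over 0 to 3 h (3 to 11). In shMETTL14 11 were higher with a mean of 5 CPM, 16 with only the lines compared and 1 over 0 to 3 h (2 to 9), and 0 lower over 0 to 3 h (3 to 4). Between the knockdown lines 4 were higher with only the lines compared, 2 over 0 to 3 h and 12 without the GC trend (5 to 11), and lower were 5 by library size, 4 by limma, 8 with only the lines compared, 0 over 0 to 3 h and 5 without the GC trend (1 to 4). Over 0 to 3 h TRIB3 (-0.086), SESN2 (-0.089) and CEBPB (-0.013) in shSETD2 and ATF3 (-0.0040) in shMETTL14 changed sign; SLC7A1 in shSETD2 did so with a mean of 5 CPM (0.00099), only the lines compared (0.0013) and when libraries were left out (-0.035 to 0.0048). In the first hour 1 gene was higher in shSETD2 without the GC trend, and in shMETTL14 1 was lower by library size, no filter, DESeq2, the block, only the lines compared and without the GC trend. Where a cause is not in the setting itself, the cause was not tested.

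No label says that a replicate number marks a shared batch, and not every pair of groups had a correlation of deviations over 0.1 (23 of 66 did, range -0.105 to 0.373), so pairing was not assumed; the 3 lines at 6 h had correlations of 0.213 to 0.317, a hint from the data and not the design. With the replicate number as a block, 24 genes were lower in shSETD2 and 31 in shMETTL14 at 0 h, slopes differed higher for 5 and lower for 12 in shSETD2, for 7 and 4 in shMETTL14, and for 10 and 2 between the knockdown lines. Over all genes, slope differences called ranged from 30 to 1383 higher (222 in the reported test) and 122 to 2615 lower (960) in shSETD2, and 83 to 2106 (276) and 124 to 1047 (499) in shMETTL14. At 6 h DDIT3 and DDIT4 rested on 4 to 42 counts a library, which limits their late slopes.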
